A study of Oryctolagus cuniculus with 17 samples.

Results

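The genes described here are the surfactant proteins and the genes that handle surfactant in the alveolar type 2 cell, measured in lungs of preterm rabbit pups kept in hyperoxia or in room air. They were chosen by name: SFTPA1, SFTPB, SFTPC, SFTPD, ABCA3, LPCAT1, NAPSA, LAMP3, SLC34A2 and NKX2-1, with the entry of highest total count taken for each human gene name. Of these 10 genes, 8 were found among the 13827 entries of the count table and all 8 were among the 13142 entries with enough reads to be tested. LAMP3 and NKX2-1 were not analysed here.

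New Zealand White rabbit pups were delivered by caesarean section on day 28 of gestation (term is 31 days) and kept in incubators with 95% oxygen (hyperoxia, HT) or 21% oxygen (normoxia, NT) until postnatal day 3, 5 or 7. RNA of homogenised lung was sequenced as poly(A) libraries, from the right lung by the labels and the study's methods, while its results text names the left. The groups HT3, HT7, NT3, NT5 and NT7 held 3 samples each and HT5 held 2, 17 in all. All pups were preterm, so the normoxia groups are preterm lungs in room air and not term lungs, and which doe or litter each pup came from was not given, so that p-values measure the spread between these samples.

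Pulmonary surfactant is a film of phospholipids and proteins that lowers surface tension in the alveoli. The alveolar type 2 cell makes it, packs it into lamellar bodies and secretes it. Its proteins are the hydrophilic collectins SP-A and SP-D, which also bind microbes, and the small hydrophobic proteins SP-B and SP-C, which spread the lipids. Preterm lungs are known for lacking surfactant, and type 2 cells also renew the thin alveolar type 1 cells after injury.

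The genes lie at these positions of the count table, in the genome build OryCun2.0 named in the submitters' processing notes. SFTPA1 (ENSOCUG00000016669) spans 76333 to 107789 on the minus strand of scaffold GL018716, and SFTPD (ENSOCUG00000027260) spans 48590 to 53967 on the plus strand of the same scaffold, with a gap of 22.4 kb between them. SFTPB (ENSOCUG00000020733) lies at chr2:100603549-100802767 on the plus strand, and SLC34A2 (ENSOCUG00000002944) at chr2:16118104-16141175 on the plus strand. SFTPC (ENSOCUG00000002024) spans 510435 to 513470 of GL018798, ABCA3 (ENSOCUG00000005137) 36833 to 69565 of GL018968 and LPCAT1 (ENSOCUG00000038840) 131 to 16573 of GL019196, all on the minus strand. NAPSA (ENSOCUG00000023398) spans 9679 to 11472 on the plus strand of AAGW02082616. Counts are sums over whole loci, so no exon or isoform can be told apart. The locus of SFTPB also carries TMEM150A with the same counts, so that the values given for SFTPB cannot be separated from TMEM150A, and its span is long enough that reads of other transcripts in it may be included.

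Values are CPM, counts per 1000000 counts of the library over the entries tested, with library sizes scaled by the trimmed mean of M-values (TMM) to even out composition between samples. Library totals, counting each locus once, ran from 13123731 to 18111086. Differences are log2 fold changes (log2FC, hyperoxia over normoxia) from edgeR's quasi-likelihood test with 6 group means, with the standard error (SE) and a p-value adjusted by Benjamini-Hochberg over all 13142 entries. A gene is said to have risen, fallen or changed where the adjusted p was under 0.05. The stricter DEG thresholds of the study, an adjusted p under 0.01 and a log2FC above 2 or below -2, were passed by none of the 8 genes on any day, against 0.0533% of all genes on day 3, 1.58% on day 5 and 4.59% on day 7. No transcript lengths were used, so levels are compared between samples of a gene and not between genes.

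SFTPA1 rose in HT7, NAPSA and SLC34A2 fell in HT7, and SFTPB, SFTPC, SFTPD, ABCA3 and LPCAT1 did not pass the test on any day. On day 7, 1 of 8 genes rose, against 23.7% of all genes tested, and 2 of 8 fell, against 23.7%. On day 3 and on day 5 edgeR called none of them. On day 3, 0.517% of all genes rose and 0.517% fell, and on day 5, 15.9% rose and 15.4% fell.

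**Figure D1:**
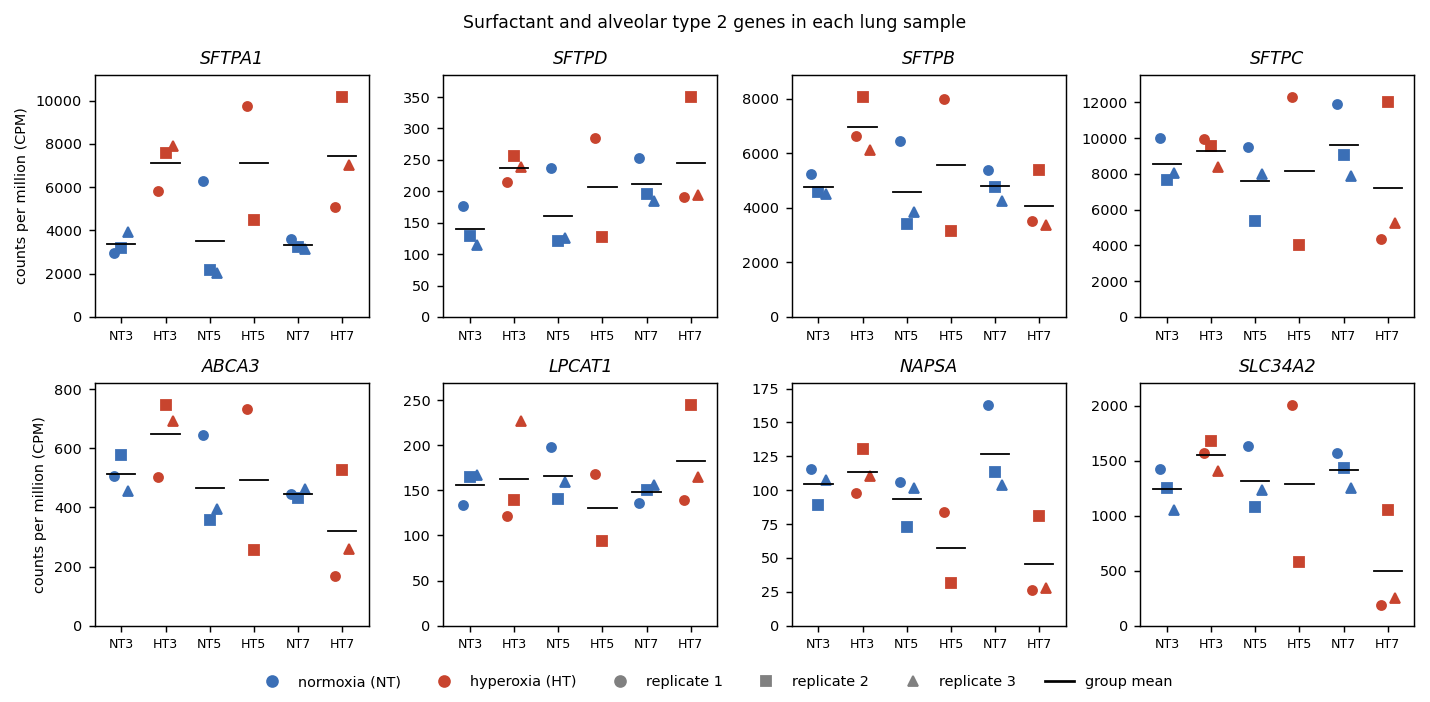
CPM (linear axis from 0) of the 8 genes in each of the 17 lung samples, with normoxia in blue, hyperoxia in red, marker shape for the replicate number and a black line at the group mean. SFTPA1 in HT3 and HT7 lies above all samples of NT3 and NT7, and NAPSA and SLC34A2 in HT7 lie below all samples of NT7, while the HT5 pair and HT7 replicate 2 show how far samples of 1 group stood apart.

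The spread between samples of a group was part of the picture for every gene. HT7 replicate 2 had higher values than HT7 replicates 1 and 3 in all 8 genes. The 8 genes together held 29835 CPM in that sample, against 13676 CPM in replicate 1 and 16498 CPM in replicate 3. The HT5 pair was as wide, with 33348 CPM in replicate 1 and 12749 CPM in replicate 2. The NT7 samples held 23456, 19384 and 17449 CPM, and the NT3 samples 20523, 17624 and 18363 CPM. In NT5, replicate 1 held 25062 CPM and the others 12726 and 15878 CPM, and the HT3 samples held 24916, 28196 and 25121 CPM, above every NT3 sample. In whole lung, fewer type 2 cells and less RNA per type 2 cell cannot be told apart.

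SFTPA1 encodes SP-A, the most abundant surfactant collectin. Its CPM was 2938, 3204 and 3933 in NT3 and 5809, 7601 and 7906 in HT3. It was 6305, 2191 and 2019 in NT5 and 9754 and 4480 in HT5. On day 7 it was 3598, 3225 and 3122 in NT7 and 5100, 10190 and 7015 in HT7. Every hyperoxia sample lay above every normoxia sample on days 3 and 7, and on day 5 HT5 replicate 2 lay under NT5 replicate 1.

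The mean of SFTPA1 was 7435 ± 2571 CPM (SD, n = 3) in HT7 and 3315 ± 250.4 CPM (SD, n = 3) in NT7. The log2FC on day 7 was 1.17 (SE 0.39, edgeR adjusted p = 0.0229), or 2.24-fold. On day 3 the log2FC was 1.08 (SE 0.39, edgeR adjusted p = 0.196) and on day 5 it was 1.02 (SE 0.42, edgeR adjusted p = 0.0786), neither past the threshold. The rise on day 7 depended on single samples: the edgeR adjusted p was 0.0877 without HT7 replicate 2 (log2FC 0.88), 0.0637 without NT7 replicate 2 (1.15) and 0.0655 without NT7 replicate 3 (1.12). On day 5 SFTPA1 passed without NT5 replicate 1 (log2FC 1.76, adjusted p = 0.00229).

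Since SFTPA1 had nearly the same log2FC on the 3 days, the mean of the 3 daily differences was tested in the same edgeR fit, a comparison chosen after seeing the data. Over 8 hyperoxia and 9 normoxia samples, SFTPA1 was 1.09 higher on the log2 scale (SE 0.23, adjusted p = 0.00114), with a 95% interval from 0.60 to 1.58. It passed in all 17 fits that left out a sample, with log2FC from 0.87 to 1.33. NAPSA was the only other of the 8 genes to pass in this comparison, with a log2FC of -0.69 (SE 0.24, adjusted p = 0.0231). Its call was lost without HT5 replicate 2 (log2FC -0.52, adjusted p = 0.0862). In this comparison 26.9% of all genes were higher and 27.5% lower.

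SFTPD encodes SP-D, the other surfactant collectin, and its locus is the neighbour of SFTPA1. Its CPM was 177.1, 128.6 and 114.3 in NT3 and 214.5, 255.7 and 239.4 in HT3, with no overlap. On day 5 it was 236.7, 120.7 and 125.5 in NT5 against 285.4 and 127.4 in HT5, and on day 7 it was 252.5, 194.9 and 185.2 in NT7 against 191.7, 350.8 and 194.7 in HT7. The groups overlapped on both later days. The log2FC was 0.76 on day 3 (SE 0.32, edgeR adjusted p = 0.273), 0.36 on day 5 and 0.22 on day 7, none past the threshold. The 95% interval on day 7 ran from -0.46 to 0.9, and the difference between SFTPD and SFTPA1 was not tested.

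SFTPB encodes SP-B, without which lamellar bodies do not form and newborns cannot breathe. Its CPM, shared with TMEM150A, was 5231, 4572 and 4495 in NT3 and 6651, 8089 and 6134 in HT3, again with no overlap. The values were 6460, 3421 and 3856 in NT5, 7995 and 3147 in HT5, 5396, 4772 and 4267 in NT7 and 3503, 5392 and 3357 in HT7. On day 7, HT7 replicates 1 and 3 lay under all NT7 samples and replicate 2 among them. The log2FC was 0.55 on day 3 (SE 0.30, edgeR adjusted p = 0.407) and -0.24 on day 7 (adjusted p = 0.537).

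SFTPC encodes SP-C, the surfactant protein made by type 2 cells alone. Its CPM was 9990, 7636 and 8040 in NT3, 9949, 9554 and 8407 in HT3, 9478, 5342 and 7985 in NT5, and 12320 and 4033 in HT5. On day 7 it was 11890, 9066 and 7903 in NT7 and 4360, 12000 and 5227 in HT7. HT7 replicate 2 was the highest sample of day 7 and HT7 replicates 1 and 3 the lowest. The log2FC was 0.12, 0.11 and -0.42 on days 3, 5 and 7, with a 95% interval on day 7 from -1.24 to 0.41 (edgeR adjusted p = 0.392). Without HT7 replicate 2 it was -1.0 (edgeR adjusted p = 0.0321).

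ABCA3 is the transporter that moves phospholipid into lamellar bodies. Its CPM was 506.5, 578.3 and 454.1 in NT3 and 501.9, 744.9 and 693.2 in HT3, and 643, 357.6 and 395.1 in NT5 against 732.2 and 255.1 in HT5. On day 7 it was 446.1, 430.8 and 462.1 in NT7 and 168.7, 526.9 and 260.3 in HT7. As for SFTPC, HT7 replicates 1 and 3 were under all NT7 samples and replicate 2 above them. The log2FC was 0.33, 0.09 and -0.49 on days 3, 5 and 7 (edgeR adjusted p = 0.316 on day 7), and -1.05 on day 7 without HT7 replicate 2 (edgeR adjusted p = 0.0266).

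LPCAT1 remodels phosphatidylcholine to its saturated surfactant form. Its CPM was 134.2, 164.5 and 167.4 in NT3, 122, 139.4 and 227.1 in HT3, 197.6, 140 and 159 in NT5, and 168 and 93.28 in HT5. On day 7 it was 136.4, 150.3 and 156.1 in NT7 and 139.1, 244.2 and 165.2 in HT7. The groups overlapped on every day. The log2FC was 0.07, -0.34 and 0.31 on days 3, 5 and 7, and the 95% interval on day 7 ran from -0.24 to 0.86.

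NAPSA encodes napsin A, an aspartic protease that takes part in the maturation of SP-B and that alveolar macrophages also hold. Its CPM was 115.9, 89.39 and 107.8 in NT3 and 98.06, 130.5 and 110.8 in HT3, and 105.8, 72.56 and 101.4 in NT5 against 83.67 and 31.65 in HT5. On day 7 it was 162.6, 113.4 and 103.7 in NT7 and 26.36, 81.15 and 28.12 in HT7, with every HT7 sample under every NT7 sample. The mean was 45.21 ± 31.14 CPM (SD, n = 3) in HT7 and 126.6 ± 31.58 CPM (SD, n = 3) in NT7, 2.80-fold lower.

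The log2FC of NAPSA was 0.12 on day 3, -0.70 on day 5 (edgeR adjusted p = 0.245) and -1.49 on day 7 (SE 0.40, edgeR adjusted p = 0.00658). NAPSA passed on day 7 in all 6 fits that left out a sample, from -2.21 without HT7 replicate 2 to -1.21 without HT7 replicate 1. Without HT5 replicate 1 it also passed on day 5, at -1.56 (edgeR adjusted p = 0.0384).

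SLC34A2 is the sodium phosphate cotransporter of the type 2 cell, which takes up the phosphate released as surfactant lipid is broken down. Its CPM was 1430, 1252 and 1051 in NT3 and 1570, 1682 and 1404 in HT3, and 1636, 1081 and 1237 in NT5 against 2006 and 581.7 in HT5. On day 7 it was 1570, 1432 and 1250 in NT7 and 187.1, 1055 and 251.2 in HT7. All HT7 samples lay under all NT7 samples, with replicates 1 and 3 far under and replicate 2 near them.

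The mean of SLC34A2 was 497.8 ± 483.6 CPM (SD, n = 3) in HT7 and 1417 ± 160.5 CPM (SD, n = 3) in NT7, 2.85-fold lower, and the log2FC was -1.51 (SE 0.52, edgeR adjusted p = 0.0268). On days 3 and 5 it was 0.32 and -0.03. The fall on day 7 lost its call without HT7 replicate 1 (log2FC -1.12, adjusted p = 0.096), HT7 replicate 3 (-1.18, 0.11), NT7 replicate 1 (-1.43, 0.0616) or NT7 replicate 2 (-1.5, 0.0553), and was -2.68 without HT7 replicate 2 (adjusted p = 8.09e-05). With the day 7 samples fitted alone, the edgeR adjusted p was 0.0762.

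**Figure D2:**
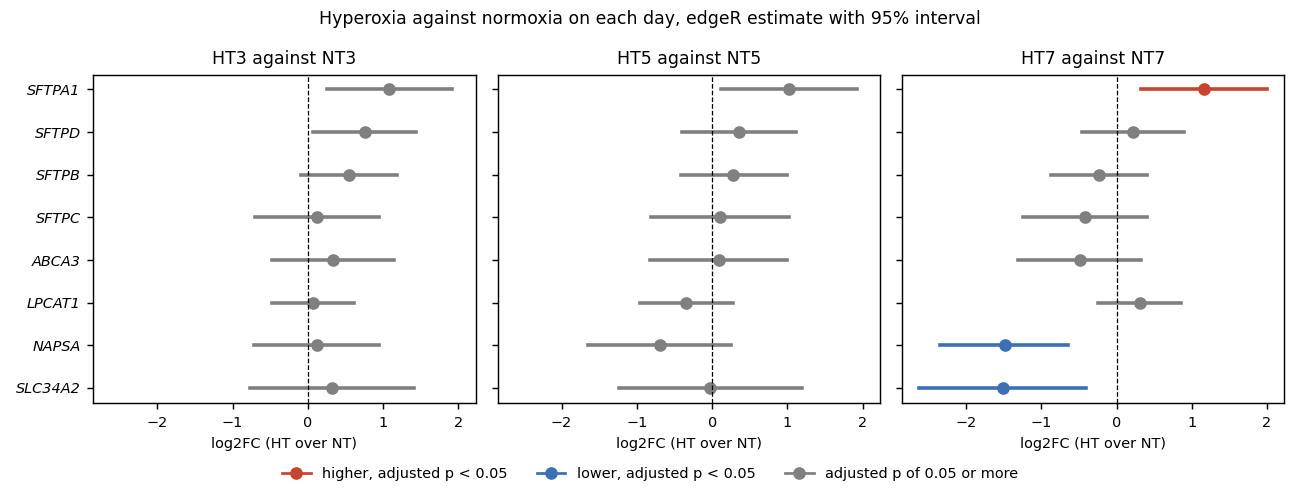
Log2FC of hyperoxia over normoxia (horizontal axis) for the 8 genes on days 3, 5 and 7, with dots for the edgeR estimate, bars for its 95% interval and colour for an adjusted p under 0.05. All 8 dots lie above 0 on day 3, while on day 7 SFTPA1 is at 1.17 and NAPSA and SLC34A2 are at -1.49 and -1.51.

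The 8 genes were also counted together on each day. On day 3 all 8 log2FC were above 0, from 0.07 to 1.08 with a median of 0.33, while the median of all genes was 0.001. None passed in edgeR or DESeq2, and at an unadjusted p under 0.05 in edgeR there were 2 of the 8 and 2013 of all 13142 genes. The other gene lists described below also differed on day 3, with medians from -0.445 for endothelial to 1.238 for neutrophil markers. What part such shifts had in the values of the 8 genes was not tested. SFTPA1, SFTPD and SFTPB were without overlap between groups, as were 26.7% of all genes. With the day 3 samples fitted alone, SFTPA1 passed (adjusted p = 0.0234). On day 5, 5 of 8 were above 0, from -0.70 to 1.02 with a median of 0.10 against -0.02 for all genes. The groups overlapped in all 8 genes on day 5, while 55.7% of all genes were without overlap. On that day 1 of the 8 and 5694 of all 13142 genes had an unadjusted p under 0.05 in edgeR. DESeq2 called SFTPA1 (log2FC 1.03, adjusted p = 0.0367), and its count of all genes on day 5 is not given here. On day 7, 3 of 8 were above 0, from -1.51 to 1.17, with a median of -0.33 against -0.01 for all genes. The 3 genes called on day 7 were without overlap, as were 54.5% of all genes.

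Whether the effect of hyperoxia differed between days was tested as a difference of differences. Between days 7 and 3, edgeR called none of the 8 genes at an adjusted p under 0.05, against 9.52% of all genes called higher and 11% called lower. At an unadjusted p under 0.05 there were 2 of the 8 and 4588 of all 13142 genes. The nearest were NAPSA, with a difference of -1.60 on the log2 scale (SE 0.55, adjusted p = 0.0531), and SLC34A2, with -1.83 (SE 0.73, adjusted p = 0.0878). DESeq2 called NAPSA (-1.61, adjusted p = 0.0142), but its count of all genes in this comparison is not given here, and the shares above are those of edgeR. Without HT7 replicate 2, edgeR called NAPSA (-2.33, adjusted p = 0.0016), SLC34A2 (-3.01, adjusted p = 0.000859) and ABCA3. The difference for SFTPA1 was 0.08, with a 95% interval from -1.08 to 1.24. Between days 5 and 3, none of the 8 was called by edgeR or DESeq2, against 1.46% of all genes called by edgeR. At an unadjusted p under 0.05 there were 0 of the 8 and 2664 of the 13142 genes tested.

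Within hyperoxia, 4 of 8 genes were lower in HT7 than in HT3, against 22% of all genes, and none was higher, against 22.3%. SLC34A2 fell by 1.64 on the log2 scale (SE 0.52, edgeR adjusted p = 0.0194) and NAPSA fell by 1.33 (SE 0.40, adjusted p = 0.014). ABCA3 fell by 1.02 (SE 0.39, adjusted p = 0.0442) and SFTPB fell by 0.77 (SE 0.30, adjusted p = 0.0491), a call lost without the low-count filter (adjusted p = 0.0501), as that of ABCA3 was with a replicate block (adjusted p = 0.0598). SFTPA1, SFTPC, SFTPD and LPCAT1 lay between -0.37 and 0.17. No call of the 4 held in every fit that left out a sample, and without HT7 replicate 1 or without HT7 replicate 3 none of the 8 genes was called, while without HT7 replicate 2 there were 5. Without HT3 replicate 2 or HT3 replicate 3 there were 2. In the same comparison, the number of all genes called was 5821 with all samples, 4743 without HT7 replicate 1, 4747 without HT7 replicate 3, 6226 without HT7 replicate 2, and 4654 and 5322 without HT3 replicates 2 and 3.

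Within normoxia, none of the 8 genes was called in NT7 against NT3 by edgeR or DESeq2, with none at an unadjusted p under 0.05, and edgeR called 0% of all genes there, with 824 of all genes at an unadjusted p under 0.05 and 39 called by DESeq2. Their log2FC ran from -0.20 to 0.59, the latter for SFTPD, whose NT7 samples all lay above its NT3 samples. It was the 1 gene of the 8 without overlap there, as were 17.4% of all genes.

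**Figure D3:**
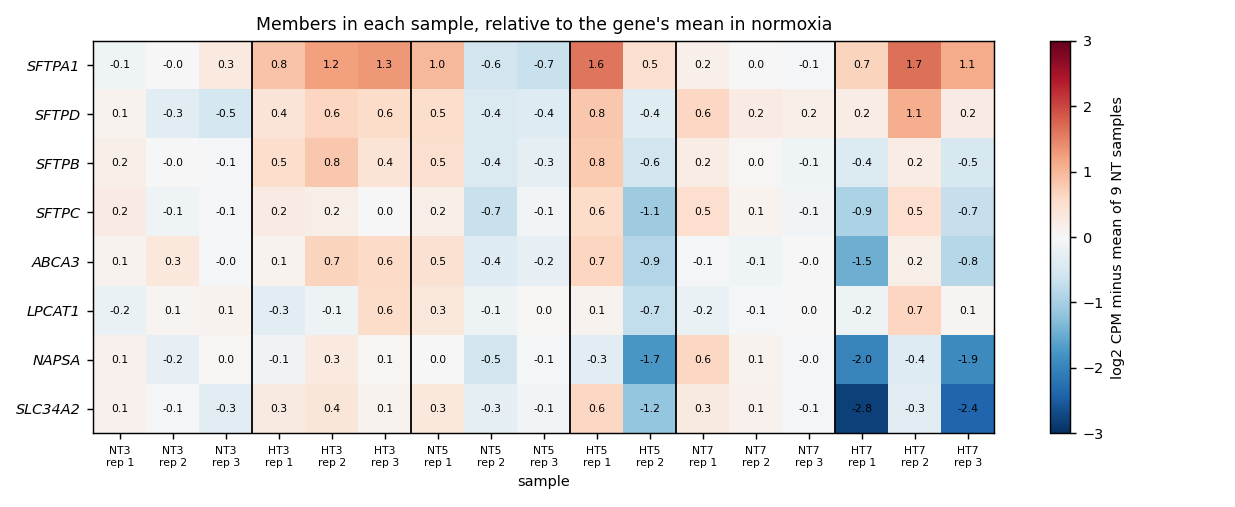
Log2 CPM of each gene (rows) in each of the 17 samples (columns) minus the gene's mean over the 9 normoxia samples, printed in each cell, with red for higher and blue for lower. HT7 replicates 1 and 3 and HT5 replicate 2 are blue in most rows with SFTPA1 still red, and HT7 replicate 2 and HT5 replicate 1 are mostly red.

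The samples that stood apart did so across the 8 genes at once. Relative to the normoxia mean of each gene, the median over the 8 genes was -0.68 in HT7 replicate 1, 0.36 in HT7 replicate 2 and -0.58 in HT7 replicate 3 on the log2 scale. It was 0.63 in HT5 replicate 1 and -0.80 in HT5 replicate 2, and in HT3 it was 0.25, 0.50 and 0.47. In the normoxia samples it stayed between -0.44 and 0.40, both ends being NT5 samples. In HT7 replicate 1 the 8 genes ran from -2.81 (SLC34A2) to 0.66 (SFTPA1), and in HT7 replicate 3 from -2.39 to 1.12 for the same genes. These samples stood apart in other lists as well. For 10 other alveolar type 2 markers, the mean log2 CPM relative to all 17 samples was 0.46 in HT7 replicate 2 against -0.46 and -0.43 in replicates 1 and 3, 0.58 and -0.66 in HT5 replicates 1 and 2, and 0.70 in NT5 replicate 1 against -0.31 and -0.22. For 9 macrophage markers it was 0.78 in HT7 replicate 2 against 0.26 and -0.22, 0.85 and -0.14 in HT5 replicates 1 and 2, and 0.89 in NT5 replicate 1 against -0.56 and -0.82. The part of these shifts in the values of the 8 genes was not tested.

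Over the 17 samples, Pearson's r of log2 CPM between pairs of the 8 genes had a median of 0.504 over 28 pairs, from -0.164 for SFTPA1 with NAPSA to 0.907 for NAPSA with SLC34A2. After the group means were taken off, all 28 were above 0, from 0.58 to 0.955 with a median of 0.833. The points share libraries and scaling, and these values describe the samples and were not tested. SFTPA1 thus varied with the others among pups of a group, while between HT7 and NT7 it rose and NAPSA and SLC34A2 fell.

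Ratios of genes within a sample do not depend on how samples are scaled. The pairs were chosen after seeing the values above, so the ratios restate them on another scale and are no further evidence, and SFTPC, the denominator, had a log2FC of its own of -0.42 on day 7. The CPM of SFTPA1 divided by that of SFTPC was 0.294, 0.42 and 0.489 in NT3 and 0.584, 0.796 and 0.94 in HT3. It was 0.665, 0.41 and 0.253 in NT5 and 0.791 and 1.11 in HT5, and 0.303, 0.356 and 0.395 in NT7 against 1.17, 0.849 and 1.34 in HT7. On each of the 3 days, every hyperoxia sample had a higher ratio than every normoxia sample, HT7 replicate 2 included.

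NAPSA to SFTPC was 0.0116, 0.0117 and 0.0134 in NT3 and 0.00986, 0.0137 and 0.0132 in HT3, which overlapped. It was 0.0112, 0.0136 and 0.0127 in NT5 and 0.00679 and 0.00785 in HT5. It was 0.0137, 0.0125 and 0.0131 in NT7 and 0.00605, 0.00677 and 0.00538 in HT7, so that hyperoxia samples lay under normoxia samples on days 5 and 7. SLC34A2 to SFTPC was 0.143, 0.164 and 0.131 in NT3 and 0.158, 0.176 and 0.167 in HT3, again with overlap. It was 0.132, 0.158 and 0.158 in NT7 and 0.0429, 0.0879 and 0.0481 in HT7, while in HT5, at 0.163 and 0.144, it lay near NT5, at 0.173, 0.202 and 0.155.

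**Figure D4:**
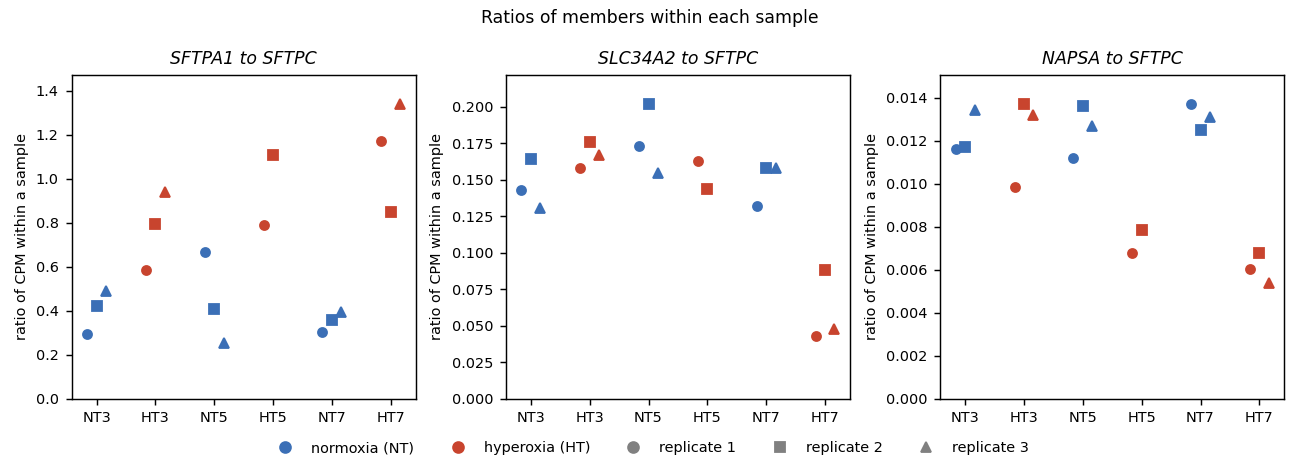
Ratio of CPM of 2 genes within each sample (linear axes from 0), with normoxia in blue and hyperoxia in red and marker shape for the replicate number. SFTPA1 to SFTPC is higher in hyperoxia on each day, reaching 1.34 in HT7, and SLC34A2 to SFTPC and NAPSA to SFTPC are lower in all HT7 samples than in all NT7 samples.

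Other genes that take part in surfactant making were looked at by lists. Their values are of whole lung, and whether they changed in type 2 cells or in other cells was not tested. No gene of any list passed on day 3. The counts below are to be read against all genes tested, of which 15.9% rose and 15.4% fell on day 5 and 23.7% rose and 23.7% fell on day 7. Of 19 genes of surfactant lipid synthesis, 13 were tested. On day 7, 6 rose and 2 fell, with a median log2FC of 0.38 against -0.01 for all genes. PLIN2, which coats lipid droplets, rose by 2.11 on the log2 scale (SE 0.26, adjusted p = 1.99e-05). CEPT1, which joins choline or ethanolamine to diacylglycerol, rose by 0.82 (SE 0.11, adjusted p = 5.76e-05). PCYT1A, the rate-limiting enzyme of phosphatidylcholine synthesis, rose by 0.79 (SE 0.12, adjusted p = 9.39e-05), with counts it shares with DYNLT2B. GPAM, the first acyltransferase of glycerolipid synthesis, fell by 0.79, and SLC44A1, a choline transporter, fell by 0.36 (adjusted p = 0.0286). On day 5, PCYT1A, CEPT1 and PLIN2 rose and no gene of the list fell.

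Of 13 genes of surfactant processing, secretion and clearance, 10 were tested, with none called on day 5 and 2 on day 7, 1 in each direction, against 23.7% of all genes in each direction on day 7. EMC3, a part of the complex that inserts membrane proteins, rose by 0.52 (adjusted p = 0.00182), and ADGRF5, a receptor that restrains the surfactant pool, fell by 1.89 (SE 0.28, adjusted p = 8.67e-05). In whole lung, the cells in which EMC3 and ADGRF5 changed were not told apart, and 5 of 7 endothelial markers fell on the same day. The median on day 7 was 0.15.

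Of 15 regulators of the distal epithelium, 13 were tested, and on day 7, 2 rose and 3 fell, with a median of -0.20, where 23.7% of all genes rose and 23.7% fell. ELF3, an epithelial ETS factor of injury responses, rose by 1.97 (SE 0.31, adjusted p = 0.000139), and KLF5, an epithelial zinc finger factor, rose by 1.04 (adjusted p = 0.00052). NR3C1, the glucocorticoid receptor, fell by 1.18 (SE 0.14, adjusted p = 1.19e-05), NFIB, a factor of lung maturation, fell by 0.92 (adjusted p = 0.000508), and FOXA2, which acts on surfactant genes, fell by 0.54 (adjusted p = 0.00399). On day 5, ELF3 and KLF5 rose and NR3C1 and FOXA2 fell.

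Of 13 other alveolar type 2 markers, 10 were tested, with none called on day 5. On day 7, 2 rose and 3 fell, with a median of -0.20. SFTA2, a small secreted surfactant-associated protein, fell by 1.79 (SE 0.35, adjusted p = 0.000747). CLDN18, a tight junction claudin of alveolar cells, fell by 1.04 (adjusted p = 0.00104), and LYZ, lysozyme, fell by 0.91 (adjusted p = 0.0227) with counts it shares with YEATS4. MUC1, a membrane mucin, rose by 0.88 (adjusted p = 0.0204) and KCNJ15, a potassium channel, rose by 1.09 (adjusted p = 0.0356).

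**Figure D5:**
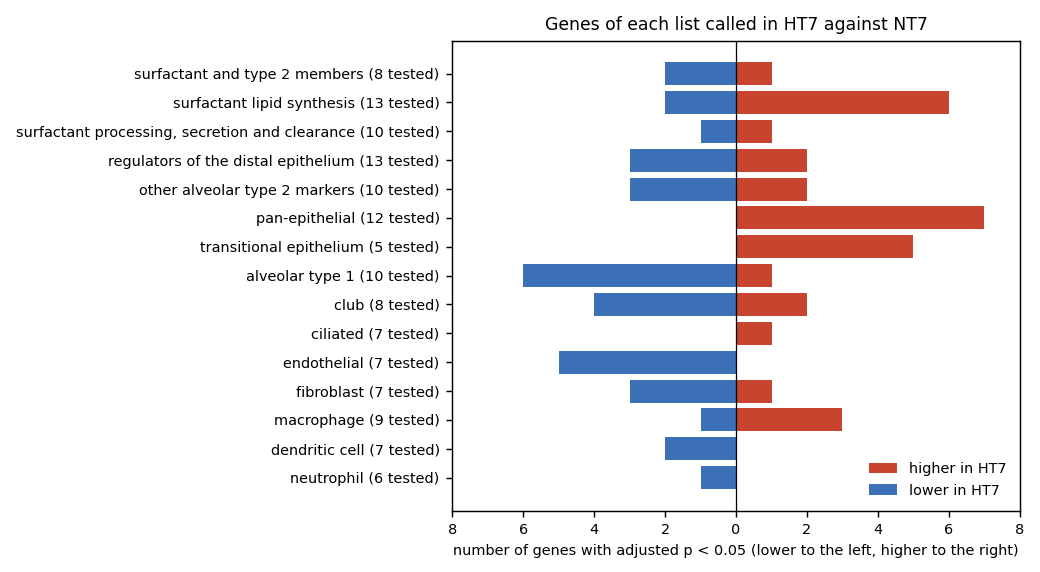
Number of genes of each list with an adjusted p under 0.05 in HT7 against NT7, with lower genes in blue to the left and higher genes in red to the right, and the number tested beside each name. Of the 8 surfactant and type 2 genes, 1 rose and 2 fell, while 7 pan-epithelial genes and 5 transitional epithelium genes rose and 6 alveolar type 1 genes fell.

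Markers of the lung's other cells were counted on day 7 in the same way, where 23.7% of all genes rose and 23.7% fell. Of 12 pan-epithelial genes, 7 rose and none fell on day 7, among them CLDN7 (log2FC 1.83), EPCAM (1.04) and CDH1 (0.99), with a median of 0.62. Their summed level was 1705 to 2172 CPM in HT7 and 968.9 to 1284 CPM in NT7. Of 8 markers of transitional epithelium, the state in which type 2 cells pass toward type 1 cells, 5 were tested. KRT8, KRT19 and SFN had no entry under these names. The 5 genes tested all rose on day 7, with a median of 1.5, among them LGALS3 (1.5), KRT7 (1.44) and CLDN4 (2.19). Their sum was 1057 to 1753 CPM in HT7, lowest in replicate 2, and 422.8 to 557.5 CPM in NT7. The cells in which they rose, and any passage of type 2 cells toward type 1 cells, were not tested.

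Alveolar type 1 markers fell in 6 of 10 genes tested and rose in 1 on day 7, with a median of -1.96, EMP2 (-2.60), CLIC5 (-2.44) and AGER (-2.04, counts shared with PBX2) among those that fell and LMO7 (0.44) the one that rose. Their sum was 3053 to 3906 CPM in HT7 and 6904 to 8456 CPM in NT7. Endothelial markers fell in 5 of 7 genes tested and rose in none, with a sum of 884.8 to 1260 CPM in HT7 and 2166 to 2531 CPM in NT7. Of 8 club cell markers, 2 rose and 4 fell, and of 7 fibroblast markers, 1 rose and 3 fell. None of the markers in these lists was at 0 in any sample.

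Of 9 macrophage markers, 3 rose (CD68, in a locus with several genes, CD163 and MSR1) and MARCO fell, with a median log2FC of -0.12. Their sum was 1905 to 2458 CPM in HT7 and 1142 to 1368 CPM in NT7, while their mean log2 CPM, relative to all samples, overlapped, at -0.22 to 0.78 in HT7 and 0 to 0.60 in NT7. Of 6 neutrophil markers tested, MPO fell and none rose, and the sum was 1094 to 3463 CPM in HT7, highest in replicate 1, and 1090 to 1181 CPM in NT7. MMP8 was at 0 in some samples. Of 7 dendritic cell markers 2 fell, and of 7 ciliated cell markers 1 rose. As above, their part in the values of the 8 surfactant and type 2 genes was not tested.

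To set the 8 genes against the 12 pan-epithelial genes, counts were also scaled by the latter, of which 7 rose on day 7 with TMM. Whether they measure the amount of epithelial RNA was not tested. The scaling moved the median log2FC of all genes by -0.61 on day 7, -0.29 on day 5 and -0.04 on day 3. The values and calls that follow contain this shift. On day 7, 5 of the 8 genes were then lower: SLC34A2 (-2.06, edgeR adjusted p = 0.00164), NAPSA (-2.04, 0.000175), ABCA3 (-1.07, 0.0134), SFTPC (-0.98, 0.021) and SFTPB (-0.83, 0.00855). SFTPA1 stayed above 0 without passing, at 0.58 (edgeR adjusted p = 0.114). Under that scaling 652 of all genes rose and 6609 fell on day 7, against 3114 and 3113 with TMM.

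The 10 genes whose log2 CPM followed the mean of the 8 genes most closely over the 17 samples had Pearson's r from 0.873 to 0.922. The first was TMEM150A, which has the counts of SFTPB itself. The others were ETV5 (0.92), an ETS factor of type 2 cells, TECTA (0.907), CYP3A43 (0.90), ZDHHC3 (0.899), LGI3 (0.889), the fatty acid desaturase SCD (0.888), RNF145 (0.886), RILP (0.879) and DRAM1 (0.873). ETV5, LGI3 and SCD also stood in the lists above, and these values describe the samples and were not tested.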

How the data were processed

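Poly(A) RNA of 17 lungs was sequenced as stranded, paired-end libraries. The authors mapped the reads to the rabbit genome and deposited raw read counts per locus without normalization, and the submitters' processing notes name FastQC, STAR 2.7.10a and the build OryCun2.0. The counting program was not given in the sources used here. A locus with several genes appears once per gene with the same counts (434 of 13313 loci), and the repeats held 8.96% to 10.1% of all counts. In all, 44 entries had no gene name.

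The counts were tested in edgeR 4.0.16 (with limma 3.58.1 in R 4.3.3). After filterByExpr, 13142 entries remained. They were scaled by TMM and fitted by quasi-likelihood with 1 mean per group for 6 groups, using the 17 samples at once, so that HT5 with 2 samples borrows its spread from the rest. Adjustment was by Benjamini-Hochberg across the entries tested. The study's own tool, DESeq2 (1.42.0), was an alternative, beside RLE scaling, no filter, scaling to pan-epithelial genes, a replicate block, a stricter threshold, 2 groups alone, 1 entry per locus and leaving out samples. Log2 CPM used a prior count of 2. Intervals are at 95%.

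All 8 genes found are described. Of each other list the counts were given with up to 3 risen and 3 fallen genes of smallest p on day 7, and the 10 entries with the highest correlation to the mean of the 8 genes. The genes and lists were chosen with earlier results of these data known.

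Labels give the groups the same replicate numbers. Deviations from group means of samples with the same number had r of 0.166, 0.131 and 0.199 on day 3, which counts as paired there by the rule that every pair exceeds 0.1, and 0.174, 0.109 and 0.0695 on day 7, which does not. On day 5 there were 2 pairs (0.264 and 0.141). Between NT3 and NT7 they were 0.18, 0.144 and 0.27, which counts as paired, and between HT3 and HT7 0.0379, 0.047 and 0.0975, which does not. The main tests used no pairing, also where the rule was met. The replicate block was the only alternative with pairing, and it covered all samples, also where the rule was not met. Counts of 12995 to 13011 genes were simulated, with some genes changed by 1 or 2 on the log2 scale. On day 7, 73.3% of those changed by 1 and 98% of those changed by 2 were called. The shares were 61.2% and 96.1% on day 5, and 67.3% and 95.6% on day 3. They are over all changed genes of the simulation and were not counted for the surfactant and type 2 genes. The SE of the latter on day 7 ran from 0.26 (LPCAT1) to 0.52 (SLC34A2). How often such changes would be called in them cannot be read from these shares. A gene that was not called is thus not shown to be unchanged.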

Additional observations from a re-analysis of the deposited data

How the results depend on the processing

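With 2 or 3 samples a group, single samples decided many calls. Leaving out 1 sample at a time, the number of the 8 genes called ran from 1 to 4 in HT7 against NT7, 0 to 1 in HT5 against NT5, 0 to 5 in HT7 against HT3 and 0 to 3 for the day 7 effect minus the day 3 effect. Log2FC that changed sign in these fits ran from -0.25 to 0.24 for LPCAT1 on day 3 and from -0.12 to 0.37 for SFTPD on day 7, and on day 5 from -0.54 to 0.79 for SFTPB, -0.91 to 0.68 for SFTPC, -0.34 to 0.81 for SFTPD, -0.87 to 0.64 for ABCA3, -0.83 to 0.01 for LPCAT1 and -1.18 to 0.59 for SLC34A2. None of these was past the threshold in edgeR with all samples. An adjusted p under 0.01 left 1 gene (NAPSA) in HT7 against NT7, 0 in HT7 against HT3 and 1 (SFTPA1) in the mean of the 3 days. The share of all genes under 0.01 was not counted, so whether the 8 genes lost more calls than other genes cannot be read from this. Scaling to pan-epithelial genes called 5 in HT7 against NT7 and 5 for the day 7 effect minus the day 3 effect, where it moved the median of all genes by -0.58 and called 187 of all genes higher and 3787 lower, against 1251 and 1442 with TMM. Its shift of all genes, -0.29 on day 5 and -0.61 on day 7, took SFTPB to -0.02, SFTPC to -0.23 and ABCA3 to -0.23 on day 5 and SFTPD to -0.36 and LPCAT1 to -0.30 on day 7, so these changes of sign follow from the scaling itself. Fitting the 2 groups alone called 1 gene in HT3 against NT3, and DESeq2 called 1 in HT5 against NT5 and 1 for the day 7 effect minus the day 3 effect. How many of all genes DESeq2 called in those comparisons is not given here, so its calls there have no background to be read against. The replicate block turned SFTPC on day 5 to -0.03 and left ABCA3 in HT7 against HT3 at -1.03 (edgeR adjusted p = 0.0598), with no other call of the 8 genes changed and 0, 0, 3 and 3 genes called in HT3 against NT3, HT5 against NT5, HT7 against NT7 and HT7 against HT3. Without the low-count filter, SFTPB lost its call in HT7 against HT3 (edgeR adjusted p = 0.0501), leaving 3 genes. The mean of the 3 days, chosen after seeing the data, kept SFTPA1 past the threshold under all alternatives run. The cause of the other changes was not tested. Over all genes, edgeR called 136 in HT3 against NT3, with 31 to 116 when a sample was left out, 28 with pan-epithelial scaling, 281 with the 2 groups alone and 505 with DESeq2. It called 4115 in HT5 against NT5, with 1158 to 4286 when a sample was left out and 2412 with the 2 groups alone. In HT7 against NT7 it called 6227, with 5181 to 6611 when a sample was left out, and in HT7 against HT3 5821, with 4654 to 6226. It called 2693 for the day 7 effect minus the day 3 effect, with 1702 to 3811 when a sample was left out, and 192 for the day 5 effect minus the day 3 effect, with 2 to 1440 when a sample was left out, 58 with pan-epithelial scaling and 890 with DESeq2. With pan-epithelial scaling, 610 of all genes rose and 2839 fell on day 5, against 2093 and 2022 with TMM.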
